A study of Mus musculus with 24 samples.

Results

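Asparagine, proline, alanine and cysteine can be made by mouse cells, and 9 genes of these pathways were examined: Asns, Pycr1, Aldh18a1, Prodh, Cth, Cbs, Gpt2, Got1 and Sesn2. They were taken by gene symbol from the 24532 genes of the expression tables, and all 9 were present. The data were bulk RNA-seq libraries of liver, inguinal white adipose tissue (iWAT), gastrocnemius muscle (GM) and hypothalamus from Ctrl and LKO mice, with 3 libraries for each genotype in each tissue, or 24 in all. Ctrl mice were Crif1flox/flox and LKO mice were Alb-Cre;Crif1flox/flox, so that both genotypes carried floxed alleles of Crif1 and only LKO mice carried the Cre transgene. All mice were of the C57BL/6 strain, were fed chow and were sampled at 8 weeks of age. Crif1 (listed as Gadd45gip1) encodes a protein of the mitochondrial ribosome that is needed to make the respiratory chain subunits encoded by mitochondrial DNA. The albumin promoter drives Cre in hepatocytes, so other liver cells and the other 3 tissues were not its target. Whether tissues came from the same mice was not stated, and p-values set differences between groups against the spread between these libraries.

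Asparagine synthetase, encoded by Asns, moves an amide group from glutamine to aspartate. Proline is built from glutamate: the bifunctional enzyme encoded by Aldh18a1 makes pyrroline-5-carboxylate (P5C) in mitochondria, the reductase encoded by Pycr1 turns P5C into proline, and the dehydrogenase encoded by Prodh runs the opposite way by oxidizing proline. Cystathionine beta-synthase (Cbs) and cystathionine gamma-lyase (Cth) form the transsulfuration route, which carries sulfur from homocysteine to cysteine and is best known in the liver. Gpt2 encodes the mitochondrial alanine aminotransferase and Got1 the cytosolic aspartate aminotransferase, which supplies aspartate. Sesn2 encodes Sestrin2, a leucine-binding protein that restrains the TORC1 kinase when amino acids are short. Asns, Aldh18a1, Pycr1, Cth, Gpt2 and Sesn2 are known targets of ATF4, the transcription factor of the integrated stress response, which binds C/EBP-ATF response elements. On mm10 the genes lie at chr6:7675171-7693182 (Asns), chr11:120635712-120643769 (Pycr1), chr19:40550257-40588463 (Aldh18a1), chr16:18071726-18089190 (Prodh), chr3:157894248-157925063 (Cth), chr17:31612623-31637205 (Cbs), chr8:85492617-85527558 (Gpt2), chr19:43499753-43524605 (Got1) and chr4:132492807-132510456 (Sesn2), Gpt2 on the plus strand and the others on the minus strand, and values are per whole gene.

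The promoter windows of the genes were searched for the core of that element, TGATGNAA, on both strands. RefSeq windows of build GRCm38.p6, each running from 250 bases before to 50 bases after a gene start, were at hand for 8 of the 9 genes, Cth being the other. The core was found in 3 of the 8 windows and in 1304 of all 32851 windows, or 3.97%. The 250 bases before the start of the 3 genes that held it are shown 5′ to 3′ along the gene, with the match in capitals, to show where the match lies in each. All 3 genes lie on the minus strand, and the stretches are chr6:7693210-7693459 for Asns, chr11:120643749-120643998 for Pycr1 and chr19:43524606-43524855 for Got1.
Asns: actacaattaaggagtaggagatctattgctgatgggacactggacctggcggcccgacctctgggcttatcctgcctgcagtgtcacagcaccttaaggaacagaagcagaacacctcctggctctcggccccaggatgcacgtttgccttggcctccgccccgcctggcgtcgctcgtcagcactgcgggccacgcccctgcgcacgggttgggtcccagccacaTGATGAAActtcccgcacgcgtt
Pycr1: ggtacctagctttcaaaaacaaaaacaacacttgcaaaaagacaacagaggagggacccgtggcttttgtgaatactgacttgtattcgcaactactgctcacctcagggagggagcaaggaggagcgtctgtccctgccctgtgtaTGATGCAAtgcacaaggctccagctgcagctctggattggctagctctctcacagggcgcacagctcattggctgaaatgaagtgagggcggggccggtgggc
Got1: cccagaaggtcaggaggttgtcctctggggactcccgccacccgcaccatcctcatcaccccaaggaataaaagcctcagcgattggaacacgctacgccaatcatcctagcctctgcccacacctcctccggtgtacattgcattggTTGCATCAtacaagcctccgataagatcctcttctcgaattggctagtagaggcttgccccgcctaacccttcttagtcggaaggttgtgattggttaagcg
The match began 23 bases before the gene start in Asns and 103 bases before it in Pycr1, both on the coding strand. Distances are from the gene starts of the RefSeq windows, which for Asns and Pycr1 are not the gene ends in the deposited files; the Pycr1 stretch runs partly into the gene as the files place it. In Got1 it began 102 bases before the start and read in the reverse direction. The windows of Sesn2, Gpt2, Prodh, Cbs and Aldh18a1 held no match, which says only that these letters were not in those 300 bases.

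Levels are given in FPKM, the fragments of a gene divided by its length and by the size of the library, and the sequence behind a library ranged from 4.45 to 8.09 gigabases. Crif1 itself was listed at 14.6, 12.5 and 13.6 FPKM in Ctrl liver and at 5.40, 2.002 and 2.51 FPKM in LKO liver, so its level was lowest in LKO replicates 2 and 3. Its group means in the other 3 tissues ranged from 11.4 to 26.3 FPKM. The defining markers of each tissue were present in that tissue's libraries. In liver, all 7 markers of monocytes and macrophages were higher in LKO without overlap of the groups, and their summed level ran from 8.76 to 10.3 FPKM in Ctrl and from 38.7 to 96.0 FPKM in LKO. The Kupffer cell sum ran from 93.4 to 97.5 FPKM in Ctrl and from 205 to 326 FPKM in LKO, with 5 of 5 markers higher without overlap. The cholangiocyte sum ran from 30.7 to 31.8 FPKM in Ctrl and from 41.6 to 89.0 FPKM in LKO, with 5 of 6 markers higher without overlap. The neutrophil sum ran from 1.01 to 1.602 FPKM in Ctrl and from 7.74 to 9.75 FPKM in LKO, with 4 of 5 higher without overlap. The hepatocyte sum spanned 58076 to 61196 FPKM in Ctrl and 43013 to 70979 FPKM in LKO, with 2 of 8 markers lower and 1 higher without overlap. The part of this shift in the liver results was not tested, and in bulk tissue fewer cells of a type and less RNA per cell cannot be told apart.

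In Ctrl mice, the 9 genes fell into sets with different tissue order. The catabolic and transsulfuration genes were highest in liver, and the genes that build asparagine and proline were lowest there or near the lowest. Cbs averaged 269 ± 11.1 FPKM (SD, n = 3) and Cth 262 ± 38.8 FPKM in liver, both above the level of 98.5% of the genes expressed in that tissue. Cth was 31.4 times its level in the next tissue, iWAT, and Cbs was 14.1 times its level in the hypothalamus. Prodh stood at 76.7 ± 10.5 FPKM in liver, then at 36.8 ± 8.12 FPKM in iWAT, 18.1 ± 3.54 FPKM in hypothalamus and 5.53 ± 0.238 FPKM in GM, with no overlap between neighbours in that order.

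The synthesis genes had another order. Asns averaged 40.6 ± 6.26 FPKM in iWAT and 39.5 ± 1.57 FPKM in hypothalamus, ranges that overlapped, and 1.35 ± 0.656 FPKM in liver and 1.02 ± 0.317 FPKM in GM, which overlapped as well. Aldh18a1 fell from 9.47 ± 0.481 FPKM in hypothalamus through 5.73 ± 0.903 FPKM in iWAT and 1.69 ± 0.190 FPKM in GM to 0.323 ± 0.0436 FPKM in liver. Pycr1 fell from 3.23 ± 0.810 FPKM in iWAT through 2.32 ± 0.0791 FPKM in GM and 1.68 ± 0.0705 FPKM in hypothalamus to 0.129 ± 0.0691 FPKM in liver. Neighbouring tissues did not overlap in either proline gene, and for both of them the liver was the lowest tissue.

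The aminotransferases and Sesn2 were spread differently again. Gpt2 averaged 86.7 ± 8.58 FPKM in GM, 74.8 ± 11.0 FPKM in iWAT and 60.7 ± 6.25 FPKM in liver, each overlapping its neighbour, and 17.4 ± 0.656 FPKM in hypothalamus. Got1 was at 166 ± 12.9 FPKM in hypothalamus and 162 ± 11.4 FPKM in GM, which overlapped, then at 84.8 ± 17.4 FPKM in liver and 6.62 ± 1.40 FPKM in iWAT. Sesn2 ranged from 11.95 ± 5.30 FPKM in iWAT, where it overlapped the 6.02 ± 0.503 FPKM of hypothalamus, to 2.497 ± 0.175 FPKM in liver and 0.961 ± 0.274 FPKM in GM. Of the 27 neighbouring pairs in these orders, 7 overlapped and 20 did not. All 9 genes differed between tissues by the limma F test over the 12 Ctrl libraries, as did 99% of all genes tested.

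**Figure D1:**
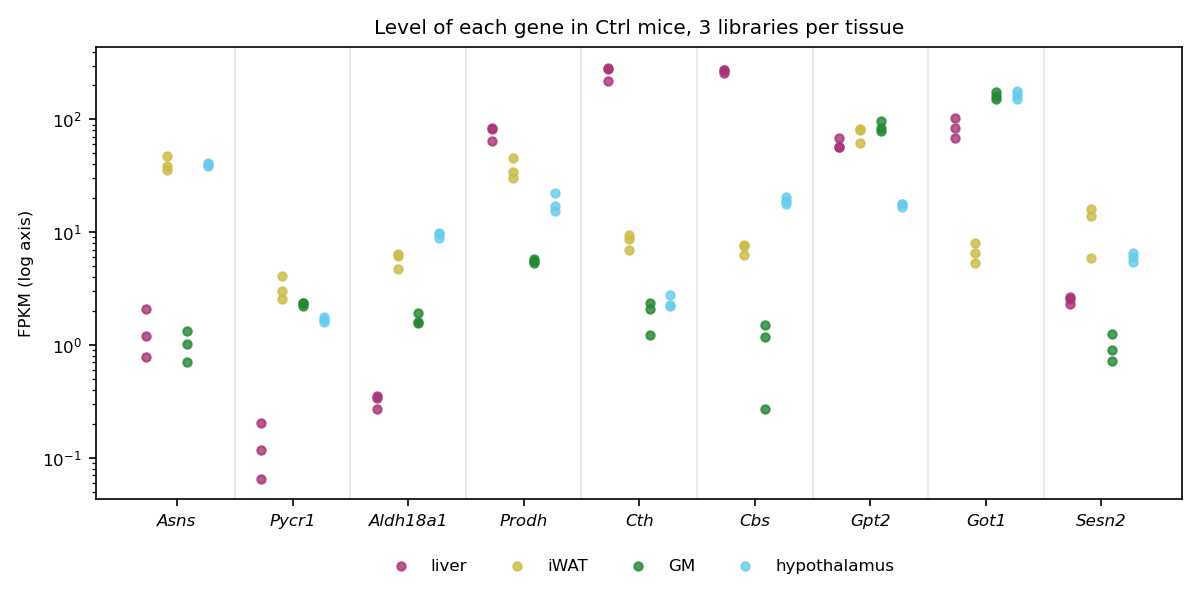
Level of each gene in the 12 Ctrl libraries, in FPKM on a log axis, with 1 point per library and 1 color per tissue. Pycr1 and Aldh18a1 are lowest in liver, at means of 0.129 and 0.323 FPKM, while Cth and Cbs are highest there, at 262 and 269 FPKM.

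The main question was how the loss of Crif1 in hepatocytes moved these genes in the liver. Asns, Aldh18a1, Gpt2 and Sesn2 rose in LKO liver in the fit with a filter on low values. Without that filter Asns, Aldh18a1 and Pycr1 were called, while Gpt2 (adjusted p = 0.0548, limma) and Sesn2 (adjusted p = 0.0522, limma) were not. The transsulfuration pair and Got1 did not pass the test, and Prodh, with a lower mean in LKO, did not pass it. Genes that reached 1 FPKM in 3 or more of the 6 libraries were tested with limma on log2(FPKM + 1), and a gene was called with a Benjamini-Hochberg adjusted p under 0.05 and at least a 1.5-fold change. By this rule 8 of the 9 genes were tested and 4 were called, all higher, beside 27.4% of the 10956 genes tested in liver (23.9% higher and 3.5% lower). Aldh18a1, 1 of the 4, was under 1 FPKM in every Ctrl library and entered the fit only through the LKO libraries, so the count is not read as a result about the 9 genes. The groups did not overlap in the same 4 genes nor in Pycr1, where 61.1% of all tested genes had groups without overlap.

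Asns was listed at 1.21, 0.783 and 2.07 FPKM in Ctrl liver and at 5.20, 16.9 and 21.5 FPKM in LKO liver. Every LKO library was above every Ctrl library, and LKO replicate 1 was the lowest of its group. The ratio of the means was 10.7, and the log2 fold change was 2.56 ± 0.47 (SE, adjusted p = 0.00708, limma). The LKO mean of 14.5 ± 8.41 FPKM was still below the levels of Asns in Ctrl iWAT and hypothalamus.

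Both genes of proline synthesis were close to the floor in Ctrl liver. Aldh18a1 was at 0.355, 0.273 and 0.340 FPKM in Ctrl and at 2.25, 6.14 and 13.0 FPKM in LKO, again with LKO replicate 1 lowest and with no overlap. Its log2 fold change was 2.38 ± 0.46 (SE, adjusted p = 0.00866, limma). In the fit without the filter the adjusted p was 0.021 by limma. The LKO mean, 7.14 ± 5.45 FPKM, was between the Ctrl means of iWAT and hypothalamus.

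Pycr1 was at 0.0654, 0.118 and 0.202 FPKM in Ctrl liver and at 0.456, 1.11 and 2.06 FPKM in LKO liver. The groups did not overlap, but only 2 libraries reached 1 FPKM, so the gene was not in the filtered fit. In the fit of 17883 genes without the filter, its log2 fold change was 0.91 ± 0.26 (SE, adjusted p = 0.0447, limma), a value that the added 1 FPKM keeps small at this level. That adjusted p was 0.111 to 0.121 without any 1 of the Ctrl replicates, 0.114 without LKO replicate 2, 0.0514 without LKO replicate 3 and 0.00359 without LKO replicate 1.

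Prodh, which removes proline, was at 81.5, 64.7 and 84.0 FPKM in Ctrl liver and at 25.0, 56.6 and 66.7 FPKM in LKO liver. The ranges overlapped, with LKO replicate 1 far below the others. The log2 fold change was -0.73 ± 0.34 (SE, adjusted p = 0.111, limma). In 1 fit of all 24 libraries, which shares the spread between tissues, the adjusted p was 0.0121 by limma and Prodh was called lower. Without LKO replicate 1 the log2 fold change was -0.31 (adjusted p = 0.0786, limma). LKO replicate 1, the library with the lowest Prodh, was also the one in which Aldh18a1, Pycr1 and Asns stood least above Ctrl.

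**Figure D2:**
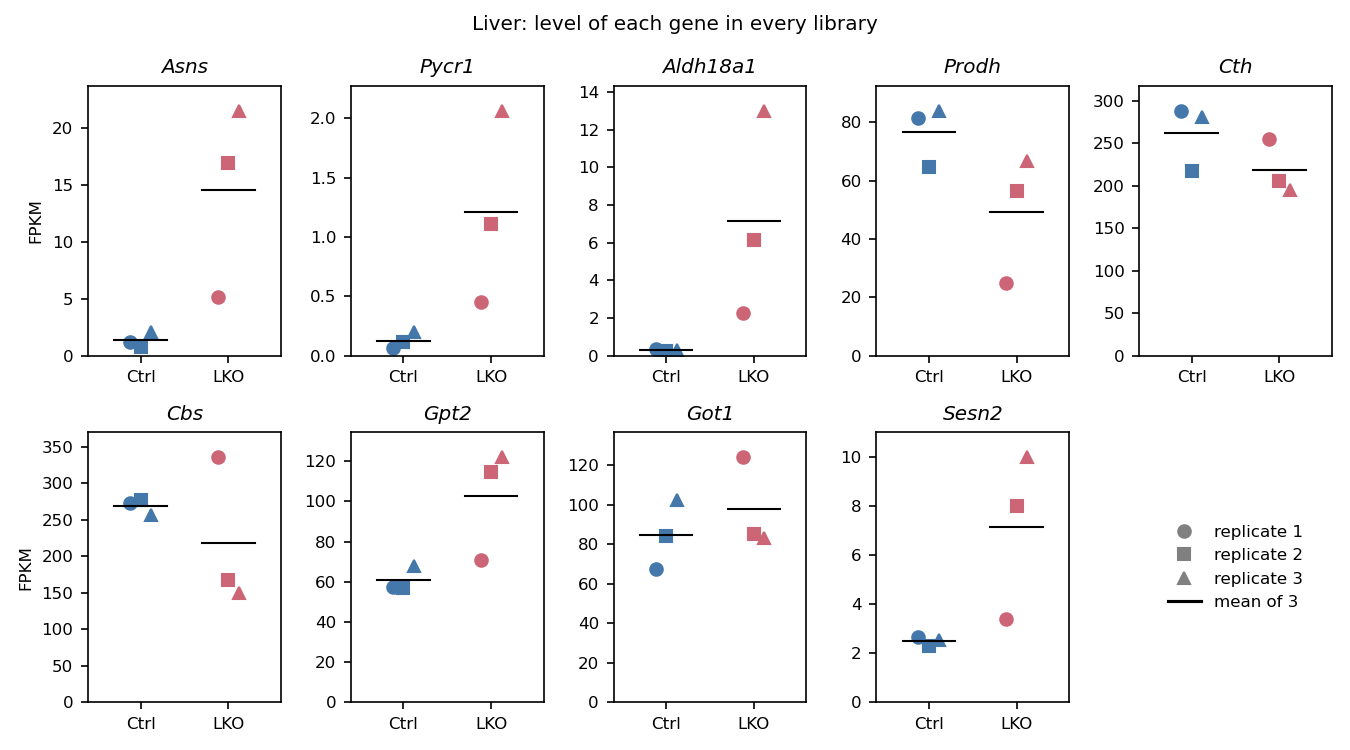
Level of each gene in the 6 liver libraries, in FPKM on an axis that starts at 0, with 1 marker per replicate number and a line at the mean of 3. LKO replicate 1 is the lowest LKO library for Asns, Pycr1, Aldh18a1, Prodh, Gpt2 and Sesn2 and the highest for Cth, Cbs and Got1.

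The transsulfuration genes did not rise in LKO liver. Cth was at 288, 218 and 281 FPKM in Ctrl and at 255, 206 and 195 FPKM in LKO, and the log2 fold change was -0.26 ± 0.16 (SE, adjusted p = 0.205, limma). Cbs was at 273, 277 and 256 FPKM in Ctrl and at 336, 167 and 150 FPKM in LKO. One LKO library of Cbs, replicate 1, lay above all Ctrl libraries and the other 2 lay below them. The log2 fold change of Cbs was -0.40 ± 0.28 (SE, adjusted p = 0.271, limma). Without LKO replicate 1 it was -0.76 ± 0.10 with an adjusted p of 5.2e-04 by limma, and Cbs was then called lower.

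Of the aminotransferases, Gpt2 was at 57.5, 56.7 and 67.9 FPKM in Ctrl liver and at 70.7, 114 and 122 FPKM in LKO liver. The LKO libraries were all above the Ctrl libraries, although replicate 1 was above the highest of them by little. The log2 fold change was 0.71 ± 0.21 (SE, adjusted p = 0.0324, limma). Got1 was at 67.7, 84.2 and 103 FPKM in Ctrl and at 124, 85.5 and 83.4 FPKM in LKO, with overlap and a log2 fold change of 0.20 ± 0.21 (SE, adjusted p = 0.438, limma). Sesn2 was at 2.65, 2.31 and 2.53 FPKM in Ctrl and at 3.42, 8.03 and 10.02 FPKM in LKO. Its groups did not overlap, and the log2 fold change was 1.12 ± 0.31 (SE, adjusted p = 0.0274, limma).

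The calls of Gpt2 and Sesn2 depended on which libraries were kept. With any 1 Ctrl replicate or with LKO replicate 2 or 3 left out, neither was called, whereas without LKO replicate 1 the log2 fold changes were 0.96 for Gpt2 and 1.51 for Sesn2, with adjusted p of 2.72e-04 and 6.5e-05 by limma. Asns was called in each of these fits, with log2 fold changes of 2.198 to 3.13. When each gene's own variance was used without limma's moderation, 0 of the 8 genes tested were called in liver and 3 had an unadjusted p under 0.05, the adjusted p being 0.057 for Asns and 0.0633 for Aldh18a1. Aldh18a1 could not be fitted without any 1 of the LKO replicates, since fewer than 3 libraries then reached 1 FPKM. In fits without the filter its adjusted p by limma was 0.0665 to 0.0746 without any 1 of the Ctrl replicates or without LKO replicate 2, 0.0233 without LKO replicate 3 and 0.00162 without LKO replicate 1.

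The scale between liver libraries bore on these results. At the deposited scale the typical tested gene was higher in LKO liver, with a median log2 fold change of 0.33, and median-ratio scaling, which sets the typical gene of each library equal, divided Ctrl libraries by 0.852 to 0.878 and LKO libraries by 1.01 to 1.34. After it, 8.99% of genes were called higher and 8.53% lower, and 3 of the 8 genes tested were called. Asns kept a log2 fold change of 2.23 (adjusted p = 0.0105, limma) and Aldh18a1 one of 2.12 (adjusted p = 0.0105, limma, and 0.0216 without the filter). Gpt2 went to 0.27 (adjusted p = 0.199, limma) and Sesn2 to 0.76 (adjusted p = 0.0521, limma), neither called. Prodh went to -1.16 ± 0.27 (adjusted p = 0.0206, limma) and was called lower. Cth went to -0.70 (adjusted p = 0.0502, limma), Cbs to -0.84 (adjusted p = 0.127, limma) and Got1 changed sign to -0.24. Quantile normalization, which also removes the shift, gave Prodh -0.93 (adjusted p = 0.062, limma), not called.

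A share of 1 enzyme among the genes of its family is free of that scale, since it is taken within a library. Gpt2 made up 27.3%, 31.7% and 31.8% of the summed FPKM of Gpt and Gpt2 in Ctrl liver and 39.0%, 45.0% and 47.0% in LKO liver. The groups did not overlap, and the mean share was 13.4 percentage points higher in LKO. Gpt, the cytosolic alanine aminotransferase, was at 140 ± 16.2 FPKM in Ctrl and 129 ± 16.2 FPKM in LKO. Sesn2 made up 29.0%, 28.4% and 30.5% of the 3 sestrins in Ctrl and 34.1%, 52.1% and 55.4% in LKO, 17.9 percentage points higher without overlap.

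For both of these shares the two-sided exact permutation test gave p = 0.1, the smallest p that 3 libraries against 3 allow. The share of Got1 among Got1 and Got2 differed by -0.778 percentage points in liver (exact p = 1) and that of Prodh among Prodh and Prodh2, the hydroxyproline dehydrogenase gene, by -5.25 percentage points (exact p = 0.8), both with overlap. Prodh2 was at 113 ± 1.604 FPKM in Ctrl liver and 88.5 ± 11.1 FPKM in LKO liver, a log2 fold change of -0.35 that was under the 1.5-fold limit (adjusted p = 0.0439, limma). In the other 3 tissues every share that could be taken had an exact p of 0.2 or above. In total 12 shares were compared, and with 0.1 as the smallest p none could pass a threshold of 0.05.

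**Figure D3:**
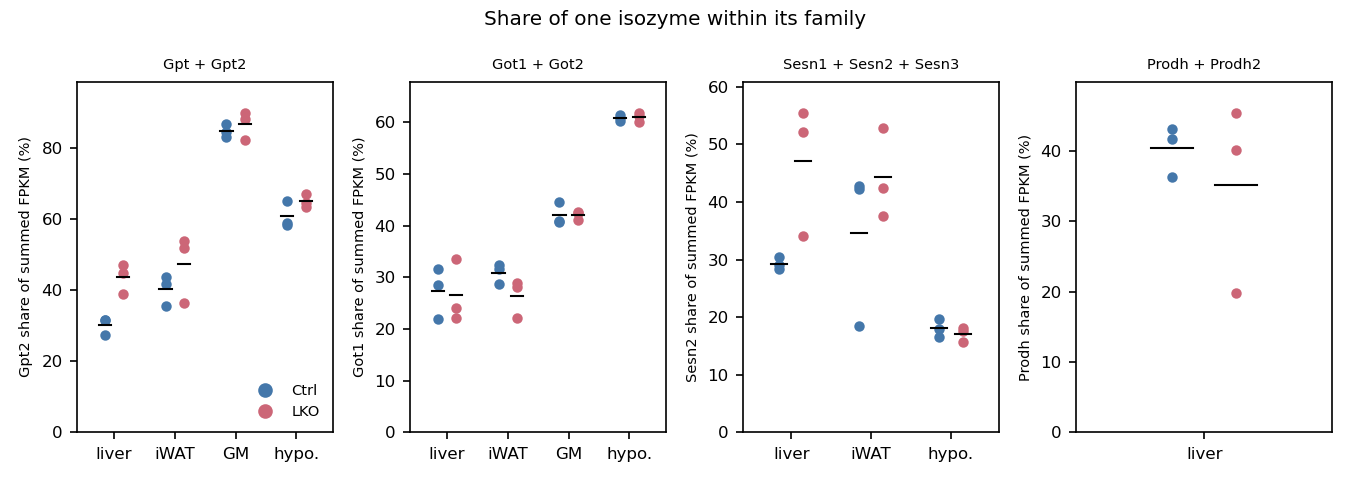
Share of 1 gene in the summed FPKM of its family, in percent on axes that start at 0, with 1 point per library, a line at the mean of 3 and the family above each panel; tissues are shown where the family could be compared. The Gpt2 and Sesn2 shares of the LKO liver libraries all sit above those of the Ctrl liver libraries.

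In iWAT, GM and hypothalamus none of the 9 genes was called. All 9 were tested in iWAT, where 0% of 12288 genes were called, and 3 had an unadjusted p under 0.05, all lower in LKO, beside 15% of all genes. Asns was at 47.6, 38.8 and 35.5 FPKM in Ctrl iWAT and at 29.6, 29.1 and 31.5 FPKM in LKO iWAT. Its groups did not overlap, which held for 20.8% of genes in iWAT, and its log2 fold change was -0.41 ± 0.11 (SE, adjusted p = 0.184, limma), of the opposite sign to that in liver. Prodh was at 34.2, 30.3 and 45.9 FPKM in Ctrl iWAT and at 23.8, 29.1 and 24.7 FPKM in LKO iWAT, also without overlap, with a log2 fold change of -0.48 ± 0.16 (SE, adjusted p = 0.249, limma). Cth had a log2 fold change of -0.43 ± 0.16 with overlap (SE, adjusted p = 0.289, limma). Sesn2 was at 13.9, 5.95 and 16.0 FPKM in Ctrl iWAT and at 13.9, 17.2 and 29.5 FPKM in LKO iWAT, with overlap and an adjusted p of 0.431 by limma. Markers moved in the iWAT libraries as well: the hepatocyte sum ran from 15.7 to 27.4 FPKM in Ctrl and from 38.9 to 56.8 FPKM in LKO, with 3 of 8 markers higher without overlap, and the neutrophil sum from 3.69 to 5.07 FPKM and from 8.62 to 19.2 FPKM, with 2 of 5 higher. Of 6 adipocyte markers, 1 was higher and 2 were lower in LKO without overlap, and the sum ran from 6865 to 7931 FPKM in Ctrl and from 7460 to 7973 FPKM in LKO. The part of these shifts in the iWAT values of Asns, Prodh and Cth was not tested.

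In GM, 7 of the 9 genes were tested, since Cbs and Sesn2 were under the filter. None had an unadjusted p under 0.05, beside 6.83% of the 10877 genes tested, and 0% of those genes were called. Their log2 fold changes ran from -0.25 ± 0.19 for Asns to 0.18 ± 0.14 for Aldh18a1. No gene of the 9 had groups without overlap in GM, which held for 11.6% of genes. The hepatocyte sum in GM ran from 19.9 to 257 FPKM in Ctrl and from 11.6 to 94.9 FPKM in LKO. Alb was at 167, 13.7 and 125 FPKM in Ctrl GM. Cbs (1.51, 0.268 and 1.19 FPKM) and Cth (2.35, 1.23 and 2.09 FPKM) had the same order there. In LKO GM Cbs kept the order of Alb and Cth did not. The part of liver transcripts in the GM values was not tested. In hypothalamus all 9 were tested and none had an unadjusted p under 0.05, beside 3.72% of the 13828 genes tested, of which 0.0217% were called. The hypothalamic fold changes were small: Asns was at 39.5 ± 1.57 FPKM in Ctrl and 40.4 ± 0.840 FPKM in LKO, a log2 fold change of 0.032 ± 0.055. Cth was the exception in having no overlap, at 2.77, 2.24 and 2.21 FPKM in Ctrl and 2.203, 1.80 and 1.80 FPKM in LKO, where 9.7% of genes had no overlap. Of 6 markers of pituitary and choroid plexus, 4 were higher in LKO hypothalamus without overlap, and their sums ran from 15.9 to 53.9 FPKM in Ctrl and from 129 to 578 FPKM in LKO. Pituitary Gh carried most of the sum, at 6.05 to 42.8 FPKM in Ctrl and 110 to 512 FPKM in LKO, while of the choroid plexus markers Folr1 was at 0.362 to 0.605 FPKM and 0.618 to 0.831 FPKM, without overlap, and Kl and Clic6 overlapped between the groups, and their part in the value of Cth was not tested.

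Whether the effect of LKO differed between tissues was tested directly, by fitting all 24 libraries together and taking an F test of the 3 contrasts that compare the effect across tissues. It was called for 3 of the 9 genes, beside 33.5% of the 15849 genes tested. These were Asns (adjusted p = 1.33e-04, limma), Aldh18a1 (adjusted p = 3.65e-04, limma) and Pycr1 (adjusted p = 0.00591, limma), the enzymes that build asparagine and proline. The test uses 1 spread for each gene over all 24 libraries. With each tissue fitted alone, the SE of Asns was 0.47 in liver and 0.055 in hypothalamus, so these p-values do not carry the wider liver spread in full. The adjusted p was 0.0792 for Sesn2, 0.163 for Gpt2 and 0.182 for Prodh, and it ran from 0.623 to 0.797 for Got1, Cth and Cbs, all by limma. After median-ratio scaling the adjusted p of Prodh was 0.00967 by limma, and 4 of the 9 genes were called, Prodh beside the same 3. These calls moved with the libraries: 5 of the 9 genes were called with replicate 1 left out of every group (the same 3, Gpt2 with an adjusted p of 0.014 and Sesn2 with 0.0255, limma), 0 without replicate 2 and 2 without replicate 3, while the calls over all genes were 8213, 479 and 584.

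**Figure D4:**
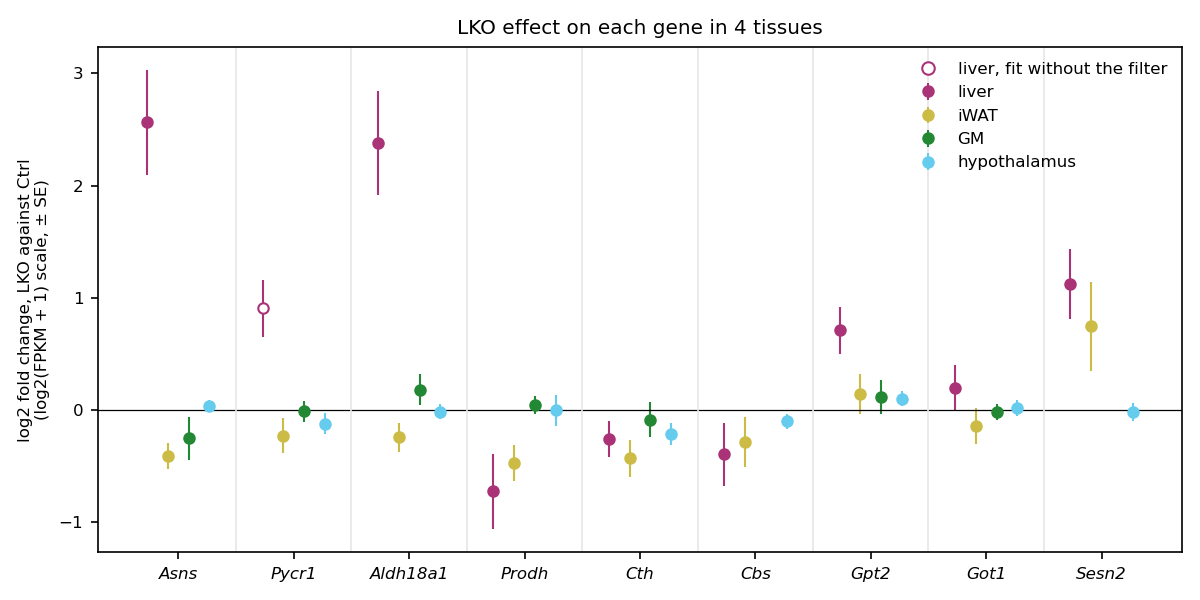
Log2 fold change of LKO against Ctrl, on the log2(FPKM + 1) scale, with its SE for each gene in each tissue; the open symbol is the liver fit without the filter, and Cbs and Sesn2 are not shown in GM, where they were under it. Asns and Aldh18a1 lie at 2.56 and 2.38 in liver and between -0.41 and 0.18 in the other tissues.

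Other genes of the same pathways were counted in liver as 7 lists, whose medians are read against the 0.33 of all tested genes. Together 19 of their 67 tested genes were called, beside the 27.4% of all genes in liver. Of 9 tested genes of asparagine, aspartate and glutamine metabolism, 2 were called, both higher, and the median log2 fold change was 0.22. One was Asrgl1, an asparaginase, at 2.91 ± 0.178 FPKM in Ctrl and 15.05 ± 10.5 FPKM in LKO (log2 fold change 1.79, adjusted p = 0.0236, limma). Asrgl1 was also called after median-ratio scaling. Of 6 tested genes of proline, ornithine and P5C metabolism, 1 was called, the dipeptidase Pepd, which frees proline from peptides (log2 fold change 0.76, adjusted p = 0.0333, limma), with a list median of 0.27. Pepd was not called after median-ratio scaling, at 0.33.

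Of 7 tested aminotransferases, 1 was called, Aadat, at 57.5 ± 8.26 FPKM in Ctrl and 25.2 ± 2.32 FPKM in LKO (log2 fold change -1.15, adjusted p = 0.00172, limma), and the list median was -0.12. The methionine cycle, which feeds homocysteine to Cbs, had 2 genes called higher and 3 lower of 10, with a median of 0.19. The 3 that fell were Gnmt, which spends the methyl donor on glycine, with a log2 fold change of -0.82 (adjusted p = 0.0216, limma), Ahcy, which releases homocysteine, with -0.73 (adjusted p = 0.0043, limma), and Bhmt, which turns it back into methionine, with -0.90 (adjusted p = 0.0269, limma). The 2 that rose were Mat2a at 0.72 and Mtrr at 0.75, and neither was called after median-ratio scaling. Of 11 genes that use cysteine or sulfide, 2 were called higher and 1 lower, with a median of -0.08. Gss, the last enzyme of glutathione synthesis, was at 34.4 ± 1.68 FPKM in Ctrl and 84.4 ± 12.9 FPKM in LKO and so rose by 1.26 on the log2 scale (adjusted p = 0.00142, limma), Fmo1 rose by 0.73 and Cdo1, which oxidizes cysteine, was at 798 ± 68.4 and 469 ± 67.2 FPKM and so fell by 0.77 (adjusted p = 0.00787, limma). Fmo1 was not called after median-ratio scaling, while Gss and Cdo1 were.

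Of 10 tested sestrins and TORC1 amino acid sensors, 1 was called, Seh1l, at 0.70, and it was not called after median-ratio scaling. The ATF4 list had 6 of 14 genes called, all higher, with a median of 0.91. Its largest fold changes were those of Nupr1 at 6.85 ± 0.86, Trib3 at 4.51 ± 0.91 and Ddit3 at 3.05 ± 0.75 (SE, adjusted p of 0.00221, 0.0098 and 0.0189, limma). In the 3 LKO libraries Trib3 was at 10.7, 75.9 and 200 FPKM and Ddit3 at 18.9, 86.2 and 217 FPKM. LKO replicate 1 was the lowest and LKO replicate 3 the highest of the group in both, as in Asns, Pycr1, Aldh18a1, Gpt2 and Sesn2. The divisors of median-ratio scaling rose in the same order, at 1.01, 1.19 and 1.34 in LKO liver replicates 1 to 3. How many of all genes had this order was not counted. Atf4 itself was at 54.4, 58.8 and 51.8 FPKM in Ctrl and 53.3, 81.2 and 107 FPKM in LKO, with an adjusted p of 0.12 by limma. After median-ratio scaling, the calls higher and lower became 2 and 1 for asparagine, aspartate and glutamine, 0 and 1 for proline, ornithine and P5C, 0 and 2 for aminotransferases, 0 and 4 for the methionine cycle, 1 and 4 for cysteine and sulfide, 0 and 0 for sestrins and sensors, and 4 and 0 for the ATF4 list. In iWAT, GM and hypothalamus 0 genes of these 7 lists were called by limma, and 8 of 61, 6 of 60 and 1 of 62 tested had an unadjusted p under 0.05, beside 15%, 6.83% and 3.72% of all genes.

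**Figure D5:**
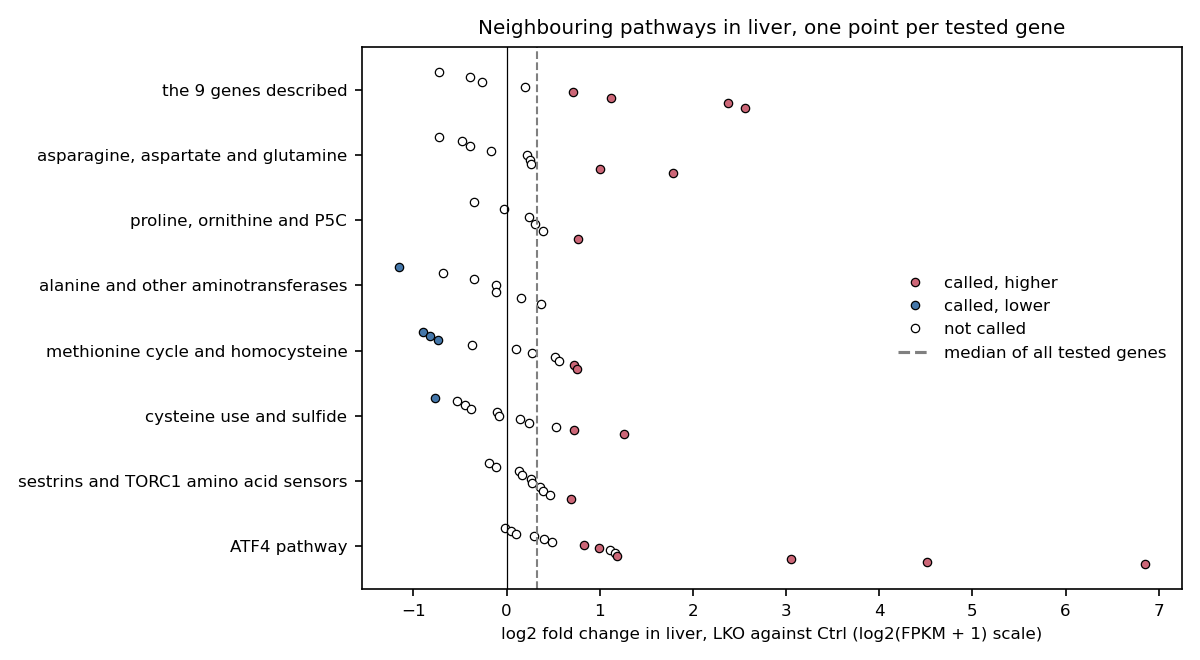
Log2 fold change in liver of each tested gene in the lists, on the log2(FPKM + 1) scale, with 1 point per gene, filled where it was called, and a dashed line at the median of all tested genes. The ATF4 list has 6 called genes, all to the right, and the methionine cycle has 3 to the left and 2 to the right.

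The pattern of each gene over the 24 libraries was set beside that of all other genes by Pearson's correlation of log2(FPKM + 1), as a description of levels that share tissues and libraries. The closest genes to Cth were Pemt (r = 0.997), Asgr2 and Glyctk, and those to Cbs were Ebpl (r = 0.989), Prlr and Pcyt2. The closest to Asns were Arhgdia (r = 0.988) and Rnf24. For Aldh18a1 they were Noc3l (r = 0.969), Arhgef2 and Agfg1, and for Pycr1 Lims1 (r = 0.962), Adamtsl4 and Slk. For Prodh they were Abhd14b (r = 0.967), Rgl3 and Lmf1, for Gpt2 Hadha (r = 0.968), Eif4g1 and Gpr146, for Got1 Tmc7 (r = 0.958), St3gal5 and Ndrg2, and for Sesn2 Pigl (r = 0.965), Xpc and Ermp1. Among the 9 genes, the highest correlations were those of Cth with Cbs (r = 0.870), Asns with Aldh18a1 (r = 0.866), Asns with Sesn2 (r = 0.853) and Prodh with Cbs (r = 0.838).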

How the data were processed

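RNA of 4 tissues from Ctrl and LKO mice was sequenced by the authors as unstranded TruSeq libraries with paired reads of 100 nt. The deposited values used were FPKM per gene and library on mouse build mm10; the submitters' processing notes name FastQC 0.11.5, Trimmomatic 0.32, HISAT2 2.0.5, Bowtie2 2.2.6, STAR 2.5.2b and StringTie 1.3.3b, with no roles. The deposited TPM served as an alternative, and the deposited coverage gave the depth with FPKM. Read counts were not used, so the precision comes from the spread between 3 libraries. Reads from a gene and an antisense partner cannot be told apart: RefSeq places Gm17586 over Pycr1 and the pseudogene Gm15801 over Aldh18a1.

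In each tissue, genes with at least 1 FPKM in 3 of 6 libraries were fitted with limma 3.58.1 (R 4.3.3, trend) on log2(FPKM + 1), with Benjamini-Hochberg adjustment over all genes tested. A fold change on this scale understates the change of low genes. Calls needed an adjusted p under 0.05 and 1.5-fold. F tests used the same model over 24 (interaction) or 12 (tissue) libraries. Shares were compared by two-sided exact permutation tests. Alternatives were a pseudocount of 0.1, no filter, a mean of at least 5 FPKM, TPM, median-ratio and quantile scaling, ordinary variances, 1 fit of 24 libraries, a replicate block and leaving out each replicate. The fits were tested on simulated data in which both genotypes had the same spread. The wider spread of genes such as Asns and Aldh18a1 in LKO liver than in Ctrl liver was not simulated.

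The 9 genes, the pathway and marker lists and the tests were chosen with earlier results of these data known. Genes named beside the 9 were up to 3 called in liver per list and direction, paralogs of the shares and the 3 most correlated genes; Atf4, as the factor its list is named after, and the markers Gh, Folr1, Kl and Clic6 were added after their values were seen. RefSeq promoter windows were matched by symbol for 8 of 9 genes. Some genes that these rules select, and the results that need them, are not reported here.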

Additional observations from a re-analysis of the deposited data

Results flagged for a closer look

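The LKO effect differed between the 4 tissues, by the limma F test of the interaction, for Asns (adjusted p = 0.000133), Aldh18a1 (adjusted p = 0.000365) and Pycr1 (adjusted p = 0.00591). These 3 of the 9 genes stand beside 33.5% of all genes tested, a share near their own. Asns was higher in 3 of 3 LKO liver libraries than in any Ctrl liver library and lower in 3 of 3 LKO iWAT libraries than in any Ctrl iWAT library. The iWAT change of Asns was not called (adjusted p = 0.184, limma). Groups without overlap were found for 61.1% of all tested genes in liver and 20.8% in iWAT. Aldh18a1 and Pycr1 were higher in 3 of 3 LKO liver libraries and overlapped between genotypes in the other 3 tissues. Without replicate 2 in every group none of the 3 passed the interaction test. That test uses 1 spread for each gene over the 4 tissues, although the SE of Asns was 0.47 in liver and 0.055 in hypothalamus.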

How the results depend on the processing

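Genes called by limma in liver numbered 3006 as reported, 1776 with a mean of at least 5 FPKM, 4822 with TPM, 1920 with median-ratio scaling, 1645 with quantile normalization, 1499 with ordinary variances and 1343 to 3907 without 1 replicate; higher calls were 2622 of 3006 as deposited and 985 of 1920 after median-ratio scaling. In iWAT 0 genes were called as reported, 14 with median-ratio scaling, 15 with quantile normalization, 317 in 1 fit of all 24 libraries and 0 to 106 without 1 replicate. In GM 0 became 22 in the fit of all 24 libraries and 0 to 13 without 1 replicate. In hypothalamus 3 became 0 with no filter, 1 with TPM, 0 with ordinary variances, 9 in the fit of all 24 libraries and 0 to 9 without 1 replicate. Of the 9 genes, 4 were called in liver as reported, 3 with no filter (Pycr1 gained, Gpt2 and Sesn2 lost), 2 with a mean of at least 5 FPKM, 2 with quantile normalization, 0 with ordinary variances (adjusted p of 0.057 for Asns and 0.0633 for Aldh18a1) and 1 to 4 without 1 replicate; the interaction was called for 3, for 4 with median-ratio scaling and for 0 to 5 without 1 replicate. Prodh was also called lower in liver in the fit of all 24 libraries (adjusted p = 0.0121).

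Direction turned for 1 uncalled gene in liver, for 2 shares in liver and for values in GM and hypothalamus. With median-ratio scaling Pycr1 in GM went to 0.0044, Got1 in GM to 0.0087 and Got1 in liver to -0.24; with TPM, Aldh18a1 in hypothalamus went to 0.00395, Prodh to 0.017 and Sesn2 to 0.0026, and with quantile normalization Prodh there went to 0.0025. Without 1 replicate, log2 fold changes ran from -0.063 to 0.034 (Pycr1), -0.26 to 0.031 (Cth), -0.0035 to 0.28 (Gpt2) and -0.065 to 0.034 (Got1) in GM, and from -0.059 to 0.011 (Aldh18a1), -0.11 to 0.14 (Prodh), -0.041 to 0.071 (Got1) and -0.073 to 0.031 (Sesn2) in hypothalamus. Shares ran from -4.25 to 1.47 (Got1) and -10.4 to 2.40 percentage points (Prodh) in liver, -0.703 to 1.28 (Got1) in GM and -0.176 to 0.659 (Got1) in hypothalamus. The cause was not tested. Over the fold changes of the 9 genes, 447 of 502 alternative values kept direction and side of the threshold, 32 lost a call, 3 gained one and 20 turned. Only Asns, Aldh18a1, Gpt2, Sesn2 and Pycr1 in liver had a call to lose. Most of the 447 were uncalled values that stayed uncalled, so that count does not measure how stable the calls were. The replicate numbers were not used to pair the libraries, except in the replicate block. Correlations of same-numbered deviations were over 0.1 in 1 of 3 pairs for liver and hypothalamus and in 2 of 3 for iWAT and GM. With 3 libraries per group these values cannot settle whether the numbers mark pairs. The replicate block gave 3031 calls in liver, 4 of them among the 9 genes, and 0 calls in hypothalamus. Pycr1 and Aldh18a1 in liver were fitted without the filter under settings added after seeing the data. For Aldh18a1 the adjusted p was 0.0291 with quantile normalization, 0.0796 with ordinary variances and 0.0381 with the replicate block. For Pycr1 the adjusted p was 0.0755 with quantile normalization, 0.124 with ordinary variances, 0.0471 with median-ratio scaling and 0.0438 with the replicate block.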
